A study of Mus musculus with 23 samples.

Results

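The viewpoint described here is the limb enhancer of Shh. It was read as bins 62 and 63 of a 5C contact map, which the matrices name bin62|mm9|chr5:29619087-29640087 and bin63|mm9|chr5:29640087-29661087, in the mm9 mouse build. They were chosen by position, because the enhancer lies near their common edge. They are 2 of 80 bins of 21 kb. In each library with all bins they make 151 of the 2926 bin pairs with a value, with 75 partner bins.

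The enhancer is known as the ZRS, for zone of polarizing activity regulatory sequence. It lies in an intron of Lmbr1, a neighbouring gene that encodes a membrane protein, and it drives Shh across a gene desert in the posterior margin of the limb bud. Shh encodes a secreted signal that patterns the digits, and loss of the ZRS in mice abolishes Shh expression in the limb but not elsewhere. In the RefSeq gene table the order along chromosome 5 is Insig1, En2, Cnpy1, Rbm33, Shh, Rnf32, Lmbr1, Nom1, Mnx1 and Ube3c, so Rnf32 lies between Shh and the gene that holds the enhancer.

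The study asked whether altered contact domains around Shh change its regulation. 5C counts ligations between chosen restriction fragments of fixed nuclei, here HindIII fragments after formaldehyde fixation. Contacts are averages over many cells, so a contact in more cells and a more frequent contact per cell cannot be told apart. The 6 edited lines of E14 mouse embryonic stem cells (ESC) were D35, DCTCF1, DCTCF2, DCTCF3, DCTCF4 and DCTCF5, with 2 libraries each, set against 2 libraries of unedited E14 cells, here called wild type. No source used here gives the positions edited in these lines, and nothing in the labels says whether a line is 1 clone. The embryo groups were of CD1 strain at E11.5: posterior limb buds (2 libraries), anterior limb buds (2), whole D700 embryos (2, each merged from 2 technical replicates) and embryo bodies (1). The labels give neither the number of pooled embryos nor their genotypes, and the body library is no matched littermate control of D700 by any label. The labels call the samples of a group biological replicates without saying which cultures or litters they came from, so a p-value measures the spread between these samples. No expression was measured, and the tissue labels could not be checked against marker genes.

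Contact values of the 19 libraries with all bins summed to between 48066.3 and 48797.3 over pairs at least 2 bins apart, and the read depth behind them is unknown. Each library was scaled to 100000, and all contact values below are on that scale unless said otherwise. Bins 25, 29 and 64 were empty throughout. Bins 27 to 58 were missing in D700, and bin 65 was at 0 with both viewpoint bins in both D35 libraries. Bins 62 and 63 had identical values with 43 of their 75 partners in every one of the 19 libraries, among them 20 of 21 partners in bins 0 to 20 but only 1 of 13 partners in bins 52 to 67. The 151 pairs thus held between 86 and 88 distinct values, and the 2 bins are not independent measurements, least of all far from the enhancer.

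Most contacts of the enhancer fell between the 2 contact minima of the map, the stretch that also holds the most partner bins. Those minima, at bins 21 and 65, cut the map into a left zone (bins 0 to 20), a central zone (bins 22 to 64) and a right zone (bins 66 to 79). Across the 19 libraries the central zone took 51.9 to 65.0% of the contacts of bin 62 (median 57.2%) and 52.03 to 63.1% of those of bin 63 (median 58.5%). The left zone took 15.7 to 23.2% for bin 62 and 14.1 to 23.2% for bin 63, and the right zone 13.9 to 18.8% and 14.1 to 19.3%. The ranges of the central zone and of the outer zones did not overlap in either bin. The central zone held 37 partner bins of bin 62 and 38 of bin 63, against 21 in the left and 14 in the right zone. It also held the nearest partners. The shares are not corrected for bin number or distance, so they do not measure containment.

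Per partner bin the contact of the enhancer with the central zone was near that of bin 60 and below that of bin 61. The mean contact with the central zone had a median of 39.1 in bin 62 and 41.6 in bin 63 over the 19 libraries, against 42.2 in bin 60, 74.4 in bin 61, 29.8 in bin 66 and 27.0 in bin 67. Bin 62 was above bin 60 in 2 of 19 libraries and bin 63 in 7 of 19. Both viewpoint bins lay below bin 61 and above bins 66 and 67 in 19 of 19 libraries. With the right zone the medians were 30.3 in bin 62 and 32.5 in bin 63, against 101 in bin 66. Bins 66 and 67 lie inside the right zone and outside the central zone, so their distances to the partners differ from those of bins 62 and 63. These means are not divided by a distance mean and do not compare profiles. Bin 63, the side nearer to bin 65, exceeded bin 62 with the right zone in 19 of 19 libraries. These are descriptions of neighbouring bins that share libraries, and they carry no test.

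The profiles most like that of the enhancer came from bins 58 to 60 on its left. Contact at each distance was divided by the mean of that distance in the same library, which gives an observed over expected value, and profiles were correlated over 70 to 72 partner bins. The mean Pearson correlation of bin 62 over 19 libraries was 0.78 with bin 58, 0.75 with bin 60 and 0.71 with bin 59. Bin 63 gave 0.74, 0.68 and 0.64 with the same bins. The least alike was bin 79 at the far right end, with -0.25 for bin 62 and -0.26 for bin 63. Partners share library, distance and bin values, so these correlations are given as descriptions.

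**Figure D1:**
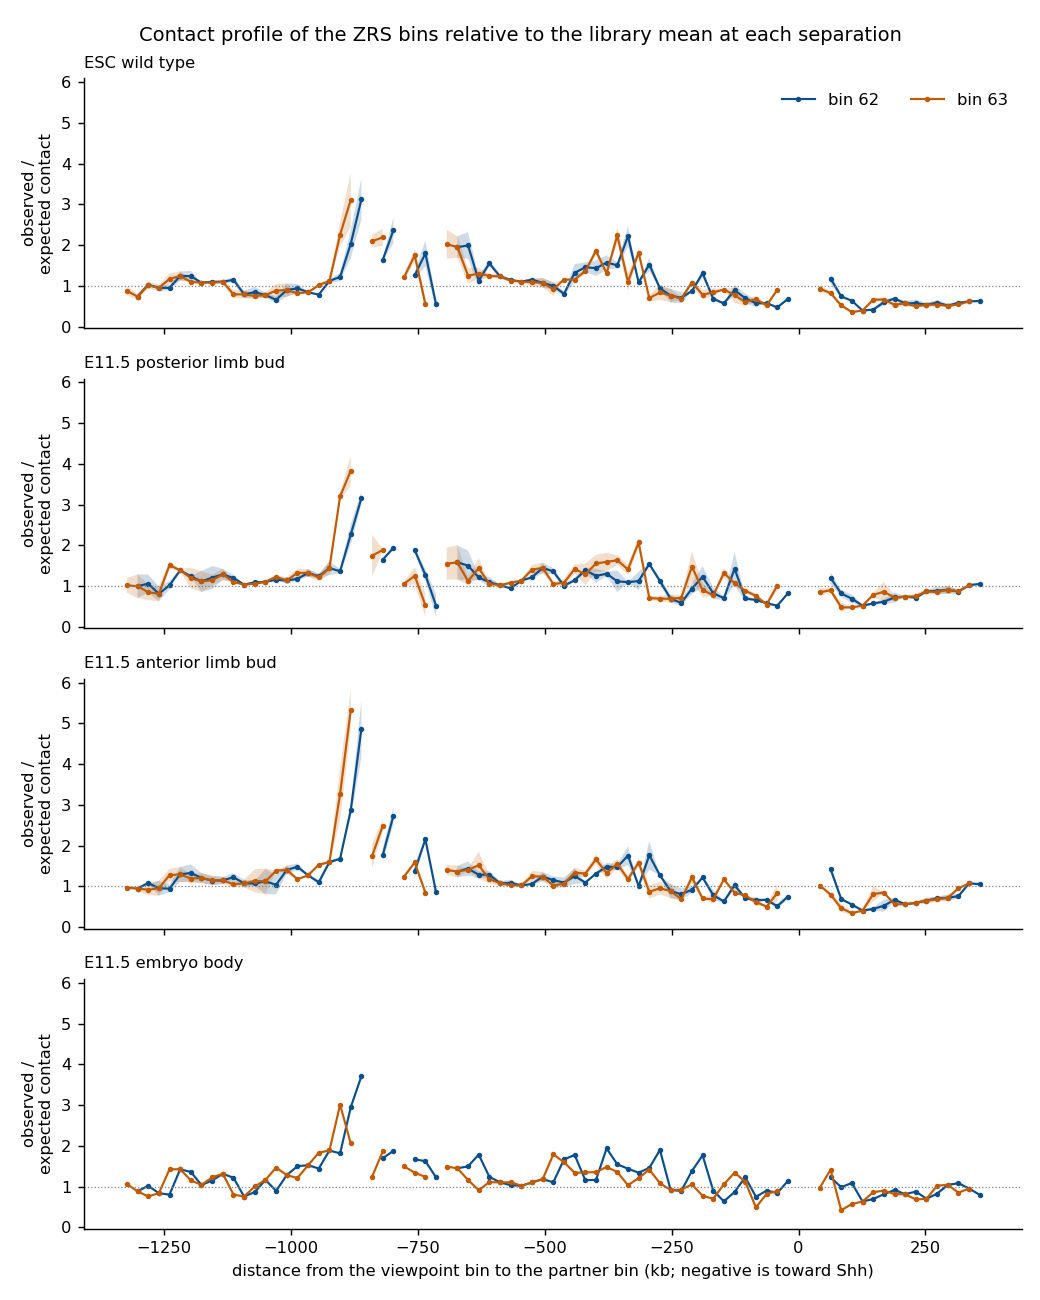
Observed over expected contact of bin 62 and bin 63 (1 coloured line each) with each partner bin, by distance in kb from the viewpoint, negative to the left. The panels are, from the top, wild type ESC, posterior limb bud, anterior limb bud and body; lines are means and bands the range of the libraries, with 1 library for the body. The highest far partner lies 861 to 903 kb to the left, in bin 21 or bin 20, in the ESC, the limb buds and the body.

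In wild type ESC, limb bud and D700 the strongest far partner of the enhancer for its distance was the left contact minimum itself. Bin 21 (chr5:28758087-28779087), 861 kb from bin 62 and 882 kb from bin 63, stood above the distance mean in 21 of 21 libraries. Its observed over expected value with bin 62 ran from 1.35 to 5.58 (median 3.01), and with bin 63 from 1.54 to 5.82 (median 3.62). It was the first partner of bin 62 in all 5 groups ranked (wild type ESC, posterior and anterior limb bud, body, D700) and of bin 63 in each but the body, where bin 20 (chr5:28737087-28758087) came first with 3.01. The mean with bin 62 was 4.87 in anterior and 3.16 in posterior limb bud, 3.71 in the body, 3.13 in wild type ESC and 1.67 in D700. The D700 value is not on the scale of the others. Its distance means come from a map without bins 27 to 58, and its distances were counted without those bins. In 3 of the edited ESC lines bin 24 exceeded bin 21 with bin 62 in both libraries. The values with bin 24 were 2.68 and 2.85 in DCTCF1, 2.97 and 2.94 in DCTCF3 and 3.90 and 3.57 in DCTCF4, and those with bin 21 were 1.38 and 1.35 in DCTCF1, 2.83 and 1.78 in DCTCF3 and 3.30 and 2.38 in DCTCF4.

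The next of the ranked partners lay beside bin 21. Bin 24 (chr5:28821087-28842087) reached 2.37 with bin 62 in wild type ESC, 1.94 in posterior and 2.73 in anterior limb bud. Bin 20 reached 2.03, 2.27 and 2.87 with bin 62 in the same order, and 2.26, 3.20 and 3.27 with bin 63. Bins 20, 21 and 24 were among the first 5 partners of both bins in all 3 of these groups. Partners within the gene desert ranked among the first 5 as well, and they differed between the lists. Bin 46 (chr5:29283087-29304087) was at 2.22 with bin 62 and 2.24 with bin 63 in wild type ESC, bin 48 at 2.07 with bin 63 in posterior limb bud, and bin 44 at 1.66 with bin 63 in anterior limb bud. The pairs with bin 22, the Shh bin, differed by between -0.67 and 0.34 on the log2 scale over the 9 comparisons, and none of them was called by limma (smallest Benjamini-Hochberg adjusted p = 0.23, DCTCF2 against wild type).

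All pair and zone comparisons below are limma fits on log2 values over every pair or zone of the map, with Benjamini-Hochberg adjustment and 0.05 as the threshold; changes and standard errors (SE) are on the log2 scale, for single pairs on that of value plus a pseudocount, which understates changes of low pairs. All comparisons of edited ESC lines use the same 2 wild type libraries and are not independent of each other. The contacts of bins 62 and 63 with bin 24 come from 1 shared value and count as 2 pairs.

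The D35 line had the most changed enhancer contacts. limma called 3 of 145 pairs of bins 62 and 63, all higher in D35, beside 32 of 2778 pairs called in either direction in the whole map (1.15%) and 0.576% of all pairs called higher. The first joined bin 62 to bin 40 in the desert: it was 42.8 and 40.1 in D35 libraries, against 21.3 and 18.8 in wild type libraries. Both D35 libraries were above both wild type libraries, and the pair rose by 0.79 (SE 0.14, adjusted p = 0.0088).

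The second pair, bin 63 with bin 52, was 57.0 and 59.7 in D35 and 33.8 and 30.2 in wild type, and rose by 0.71 (SE 0.15, limma adjusted p = 0.030). The third, bin 62 with bin 67, crossed bin 65: it was 75.1 and 85.7 in D35 and 42.6 and 46.03 in wild type, and rose by 0.74 (SE 0.16, limma adjusted p = 0.036). In neither pair did the groups overlap. Contact with bin 21 was close between the groups, with means of 63.2 in D35 and 60.8 in wild type for bin 62 and 56.3 and 52.5 for bin 63. More widely, 108 of 145 pairs had both D35 libraries above both wild type libraries, where 32.3% of all pairs did, and 1 of 145 had them below, where 12.9% of all pairs did. The median change was 0.28 over the enhancer pairs and 0.08 over all pairs tested.

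Zone means moved the same way. limma called 3 of the 6 zone means of bins 62 and 63, all higher, beside 17 of 228 zone means in the map (7.46%), with 5.26% of all zone means called higher. Bin 62 with the central zone was 55.4 and 48.8 in D35 libraries, against 35.5 and 41.7 in wild type libraries, without overlap, a rise of 0.44 (SE 0.12, adjusted p = 0.034). Among the 40 bins from 22 to 63 with a value, no bin had a larger change with the central zone. Bin 62 with the right zone averaged 37.1 ± 1.11 in D35 and 28.97 ± 1.94 in wild type (SD, n = 2 each; 0.36, SE 0.10, limma adjusted p = 0.043), and bin 63 with the right zone 39.7 ± 1.25 in D35 and 31.2 ± 1.84 in wild type (0.35, SE 0.10, limma adjusted p = 0.043). With the right zone the rise was not particular to the enhancer. Among the same 40 bins 7 had a larger change than bin 62 and 8 a larger one than bin 63, and the median was 0.26. Bin 61 was called higher with the right zone as well (0.46). The other 3 zone means of bins 62 and 63 were higher by 0.32 to 0.35 with limma adjusted p of 0.081 to 0.10. On the other side of bin 65, bin 66 averaged 39.2 with the right zone in D35 and 103 in wild type (-1.41, limma adjusted p = 1.2e-06), and bin 67 was called higher with the central zone (0.55) and lower with the right zone (-0.47).

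Both D35 libraries were run in a later year than either wild type library, so line and run year cannot be told apart. A fit with run year as a covariate, which can take out only a difference between the earlier years, called none of the 3 pairs (0.64 to 0.78, limma adjusted p 0.056 to 0.20) and none of the 3 zone means (0.37 to 0.49, adjusted p 0.099 to 0.11). Bin 65 was empty in D35. Scaled without its pairs, the 3 zone means were higher by 0.39, 0.31 and 0.31 and none was called (limma adjusted p 0.062 to 0.093). Leaving out any 1 of the 4 libraries left 0 zone means called, with changes of 0.29 to 0.55 in these 3, and at most 1 pair called.

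**Figure D2:**
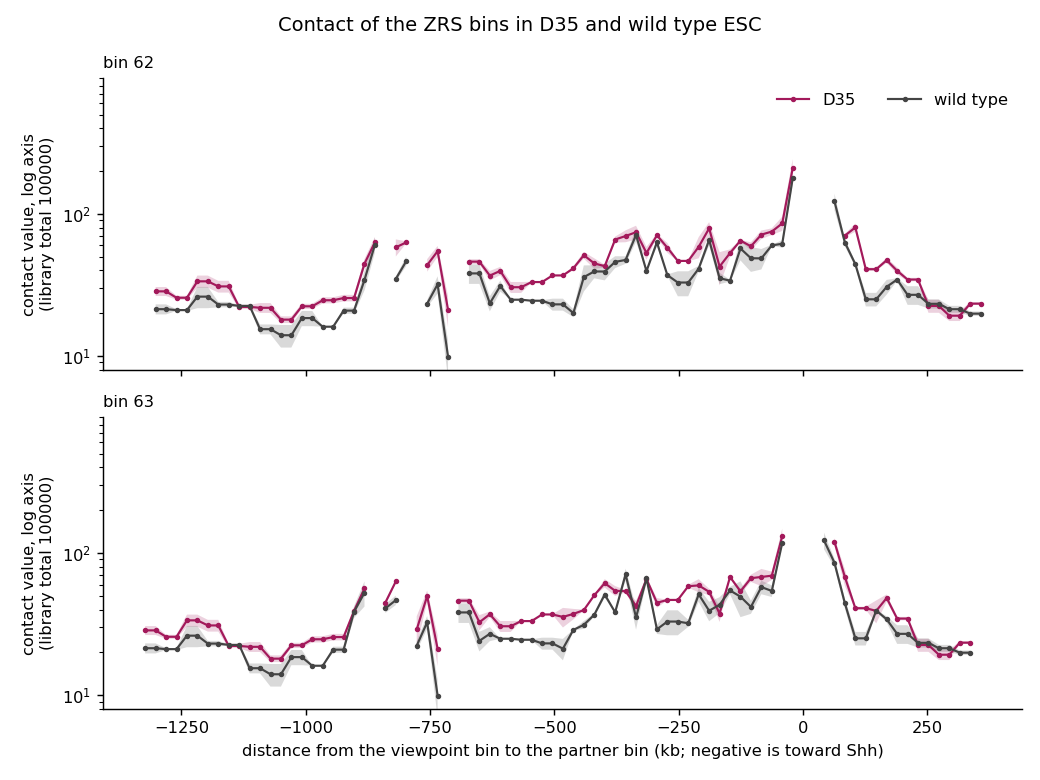
Scaled contact of bins 62 and 63 with each partner bin by distance in kb, D35 and wild type ESC, on a log axis; lines are means of 2 libraries and bands their range. D35 lies above wild type for most partners, while the peak at bin 21, with means of 63.2 and 60.8 for bin 62, is alike in height.

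In DCTCF4 one contact of the enhancer was called. limma called 2 of 147 pairs, which are the 1 shared value with bin 24, beside 22 of 2853 pairs in the map (0.771%), with 0.105% of all pairs called higher. Bin 24 lies 3 bins to the right of bin 21. The value was 78.9 and 84.9 in DCTCF4 libraries, against 43.002 and 50.05 in wild type libraries, without overlap. It rose by 0.71 (SE 0.13, adjusted p = 0.026). Set against wild type replicate 2 alone, which was run in the same year, the change was 0.62. The call was lost without wild type replicate 1 (adjusted p = 0.21), without DCTCF4 replicate 2 (0.10), with a pseudocount of 1 (0.068) and with run year as a covariate (0.14). None of the 6 zone means passed, beside 14 of 231 in the map (6.06%). Their unadjusted p was under 0.05 in 0 of the 6 and in 41 of the 231.

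No enhancer pair was called in DCTCF1, and its lowest p belonged to bin 21. limma called 0 of 147 pairs and 0 of 2853 in the map (0%). The unadjusted p was under 0.05 in 10 of the 147 and in 222 of the 2853. Bin 62 with bin 21 was 29.4 and 29.8 in DCTCF1 libraries, against 53.5 and 68.1 in wild type libraries. The 2 DCTCF1 values lay below both wild type values, and with bin 63 they were 28.3 and 37.5 in DCTCF1, against 41.96 and 63.1 in wild type. The changes were -0.84 (SE 0.19, limma adjusted p = 0.22) and -0.54 (limma adjusted p = 0.61), and the first was -0.70 between the libraries run in 2015 and -0.98 between those of the next year (1 library against 1). The observed over expected values of bin 21 with bin 62, 1.38 and 1.35 in DCTCF1, were the lowest of the 14 ESC libraries. Lower contact of bin 21 was not particular to the enhancer. Its mean with the whole central zone was called lower in DCTCF1 (-0.56, limma adjusted p = 0.015), as was that with the right zone (-0.53, limma adjusted p = 0.027). With bin 56, bin 63 was at 79.1 and 73.8 in DCTCF1 and 51.2 and 57.7 in wild type (0.43, limma adjusted p = 0.55), and the value with bin 24 was 58.7 and 64.5 in DCTCF1 (0.35, limma adjusted p = 0.55). Of all pairs 63 of 147 had both DCTCF1 libraries above both wild type libraries and 9 below, beside 31.9% and 15% in the map. None of the 6 zone means passed, beside 6 of 231 (2.6%). Their unadjusted p was under 0.05 in 1 of the 6 and in 46 of the 231.

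DCTCF2, DCTCF3 and DCTCF5 gave no called pair or zone mean of the enhancer either. For DCTCF2 limma called 0 of 147 pairs, beside 1 of 2853 in the map (0.0351%), and 0 of 6 zone means, beside 2 of 231 (0.866%). The unadjusted p was under 0.05 in 9 of the 147 pairs and 275 of the 2853. Among zone means it was so in 2 of the 6 and 43 of the 231. The contact with bin 65, 1 value for both bins, was 174 in both DCTCF2 libraries and 106 and 139 in wild type (0.49, limma adjusted p = 0.36). Its partner bin 48 was at 102 and 94.9 with bin 63 in DCTCF2 and 70.2 and 62.4 in wild type (0.51, limma adjusted p = 0.36). With the right zone bin 62 averaged 24.3 ± 0.62 in DCTCF2 and 28.97 ± 1.94 in wild type (SD, n = 2 each), the groups not overlapping, and the change of -0.25 did not pass (limma adjusted p = 0.17).

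For DCTCF3 limma called 0 of 147 pairs and 0 of 2853 in the map (0%), and 0 of 6 zone means beside 0 of 231 (0%). The unadjusted p was under 0.05 in 7 of the 147 pairs and 200 of the 2853. Among zone means it was so in 0 of the 6 and 11 of the 231. Bin 63 with bin 71, across bin 65, was 56.6 and 55.2 in DCTCF3 and 35.9 and 32.4 in wild type (0.59, limma adjusted p = 0.44). In the desert, bin 63 with bin 42 was 47.5 and 55.1 in DCTCF3 and 29.2 and 33.2 in wild type (0.58, limma adjusted p = 0.68). Bin 21 went opposite ways in the 2 viewpoint bins, with changes of -0.51 for bin 62 and 0.44 for bin 63, neither called. For DCTCF5 limma called 0 of 147 pairs and 0 of 2853 in the map (0%), and 0 of 6 zone means beside 0 of 231 (0%). The unadjusted p was under 0.05 in 7 of the 147 pairs and 159 of the 2853. Among zone means it was so in 1 of the 6 and 27 of the 231. The contact of the enhancer with bin 65 was 174 and 187 in DCTCF5, against 106 and 139 in wild type (0.54, limma adjusted p = 0.63). Bin 63 with bin 56 was 82.6 and 76.1 in DCTCF5 (0.48, limma adjusted p = 0.69), and bin 62 with the right zone averaged 34.3 ± 0.51 in DCTCF5, against 28.97 ± 1.94 in wild type (SD, n = 2 each; 0.25, limma adjusted p = 0.39).

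The share of enhancer pairs with both edited libraries above both wild type libraries was 42 of 147 in DCTCF4 (17.2% of the map), 44 of 147 in DCTCF5 (17.1%), 24 of 147 in DCTCF3 (14.5%) and 18 of 147 in DCTCF2 (13.7%). Both lay below in 14 pairs in DCTCF4 (22.4% of the map), 10 in DCTCF5 (16.5%), 24 in DCTCF3 (20.3%) and 37 in DCTCF2 (29.7%). All these comparisons share the wild type libraries.

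**Figure D3:**
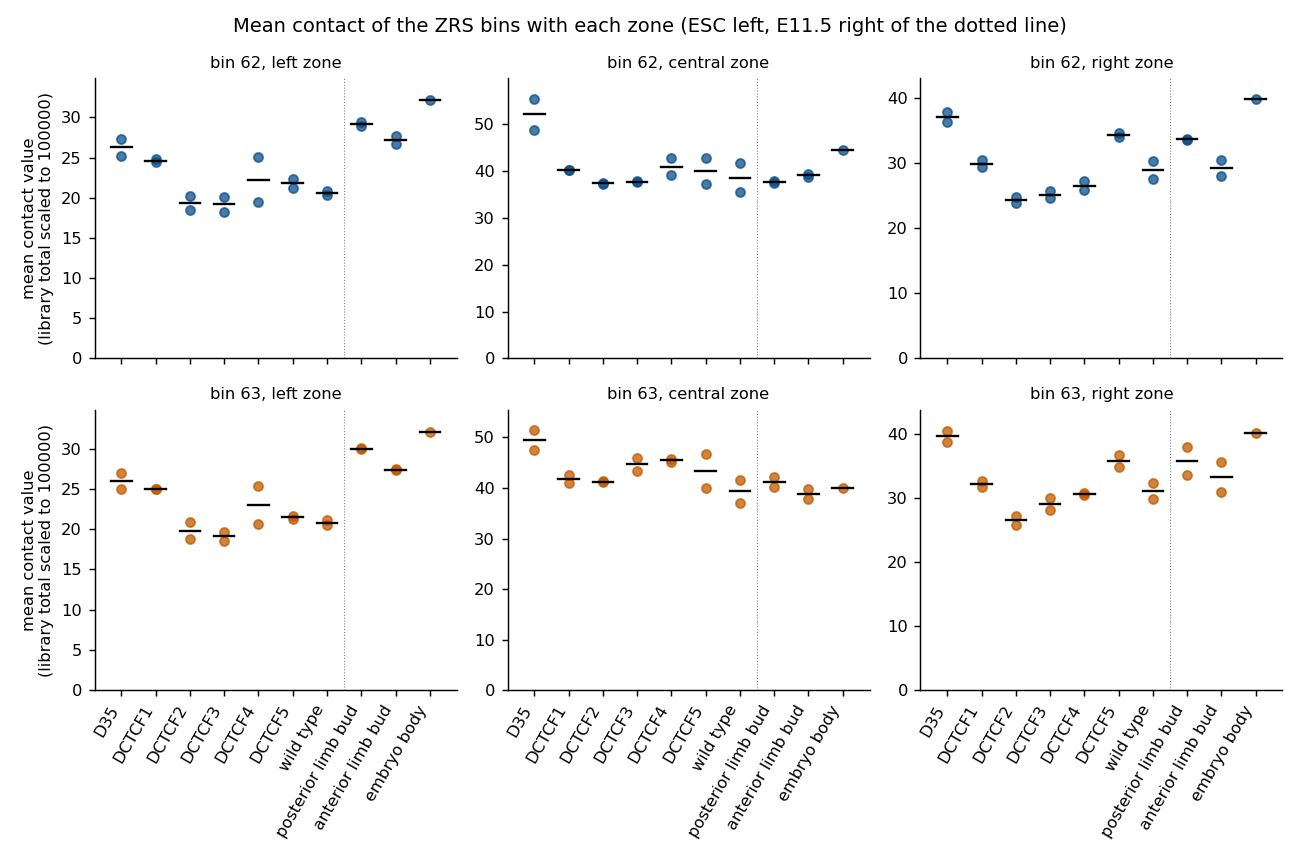
Mean scaled contact of bin 62 (upper row) and bin 63 (lower row) with the left, central and right zones; points are libraries and bars group means, in the order D35, DCTCF1 to DCTCF5, wild type ESC, then posterior limb bud, anterior limb bud and body. Both D35 points lie above both wild type points in all 6 panels, and bins 62 and 63 share many partner values. The share of all zone means of the map in that order is not given here, and among all bin pairs it was 32.3%. The wild type points with the left zone (20.4 to 21.1) lie below all limb bud points (26.7 to 30.1).

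Posterior and anterior limb buds, where the enhancer is known to be active and to be silent, did not give a called difference. limma called 0 of 147 pairs and 0 of 2853 in the map (0%). The unadjusted p was under 0.05 in 4 of the 147 and in 218 of the 2853. The lowest p in bin 62 belonged to bin 26 (41.3 and 43.04 in posterior, 23.6 and 27.0 in anterior; 0.55) and to bin 21 (80.6 and 78.6 in posterior, 102 and 125 in anterior; -0.45). For bin 63 it was bin 48 in the desert (77.7 and 68.5 in posterior, 48.8 and 50.6 in anterior; 0.47). The groups did not overlap in these 3 pairs, and each had a limma adjusted p of 0.56. Over all, 42 of 147 pairs had both posterior libraries above both anterior ones and 18 below, where 29% and 14.4% of the map did.

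The zone means of the enhancer changed by -0.05 to 0.20 between the limb bud parts, and none was called. Bin 62 with the left zone averaged 29.2 ± 0.40 in posterior and 27.2 ± 0.66 in anterior limb bud, and with the central zone 37.7 ± 0.43 in posterior and 39.1 ± 0.45 in anterior (SD, n = 2 each). With the right zone it averaged 33.6 ± 0.07 in posterior and 29.3 ± 1.76 in anterior, the largest of the 6 changes (0.20). Bin 63 averaged 30.0 ± 0.12 in posterior and 27.4 ± 0.09 in anterior with the left zone. With the central zone it averaged 41.2 ± 1.49 and 38.7 ± 1.38, and with the right zone 35.9 ± 3.03 and 33.3 ± 3.29, in the same order. The parts overlapped only in bin 63 with the right zone. The share of all zone means of the map without overlap is not given here. Among all bin pairs 29% lay higher and 14.4% lower in posterior without overlap, so this separation is not particular to the enhancer. limma called 0 of the 6 (adjusted p 0.29 to 0.75) and 0 of 231 in the map (0%). The unadjusted p was under 0.05 in 0 of the 6 and in 65 of the 231.

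The limb bud libraries were also deposited as counts between HindIII fragments, which resolve the enhancer more finely. A window around the ZRS is met by 6 of 343 fragments. They are Shh_436 (chr5:29635240-29637005), Shh_437 (chr5:29637006-29638519), Shh_438 (chr5:29638520-29640675), Shh_439 (chr5:29640676-29641133), Shh_440 (chr5:29641134-29642803) and Shh_441 (chr5:29642804-29649071), where Shh is the name of the 5C region and not of the gene. The libraries held 749738 and 1400833 counts in posterior and 1022801 and 1383595 in anterior limb bud, and the 6 fragments took 4.07 ± 0.29% of the counts in posterior and 4.02 ± 0.27% in anterior libraries (SD, n = 2 each). Reads were PCR products without molecular identifiers, so counts are not independent molecules.

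The fragments fell into 2 alternating sets. Shh_436, Shh_438 and Shh_440 had 159, 152 and 164 partner fragments with a count in any library, and Shh_437, Shh_439 and Shh_441 had 171, 173 and 173. Within a set the partners were nearly the same, with 148 shared by Shh_436 and Shh_438 and 171 by Shh_437 and Shh_439. No partner was common to a fragment of one set and a fragment of the other. Each contact of the enhancer window is therefore seen by 3 of the 6 fragments at most.

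By raw count, 7 of the 18 leading partners beyond 100 kb (3 for each fragment) lay in bin 20 or bin 21, 10 in the central zone and 1 elsewhere in the left zone. Raw counts are not divided by a distance mean, so this ranking is not on the scale used for the bins. Shh_140 (chr5:28763979-28767078, in bin 21) was the first partner of Shh_436, with 57 and 58 counts in posterior and 144 and 72 in anterior limb bud. It was also first for Shh_440, with 87 and 90 counts in posterior and 132 and 109 in anterior. Shh_438 had 70 and 0 counts with it in posterior and 83 and 94 in anterior, so 1 library lacked the contact. Posterior replicate 1 was the shallowest library and posterior replicate 2 the deepest. As CPM, counts scaled to the total of the library, Shh_140 gave Shh_436 76.0 and 41.4 in posterior and 141 and 52.04 in anterior, and Shh_440 116 and 64.2 in posterior and 129 and 78.8 in anterior, so the limb bud parts overlapped.

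Bin 20 held the first partner of 3 fragments. For Shh_438 it was Shh_132 (chr5:28738818-28743466), with 51 and 148 counts in posterior and 81 and 31 in anterior limb bud. For Shh_439 and Shh_441 it was Shh_133 (chr5:28743467-28748045), which gave Shh_441 158 and 198 counts in posterior and 156 and 234 in anterior, and Shh_439 67 and 89 in posterior and 44 and 97 in anterior. With Shh_437 it came second, at 85 and 119 counts in posterior and 112 and 127 in anterior. These ranges overlapped between the limb bud parts. The first partner of Shh_437 was Shh_378 in bin 56, with 13 and 344 counts in posterior and 88 and 138 in anterior, and the same partner gave Shh_441 45 and 330 in posterior and 90 and 162 in anterior. For Shh_378 the 2 posterior libraries stood further apart than posterior did from anterior. Other central partners were Shh_355 in bin 52, Shh_324 in bin 48, Shh_379 and Shh_390 in bin 57, Shh_393 in bin 58 and Shh_247 in bin 38.

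No fragment pair was called by edgeR's quasi-likelihood test with Benjamini-Hochberg adjustment. It called 0 of the 821 enhancer pairs tested and 0 of 17795 in all (0%). Its unadjusted p was under 0.05 in 32 of the 821 and in 1001 of the 17795. DESeq2 called 7 of the 821 and 114 in all. The lowest edgeR p-values among the enhancer pairs belonged to Shh_438 with Shh_75 (42 and 84 counts in posterior, 0 and 0 in anterior) and Shh_437 with Shh_313 (10 and 20 in posterior, 95 and 89 in anterior), with an adjusted p of 0.755 as the smallest. The biological coefficient of variation was 0.997, a spread between replicates as large as the count itself, which limits what a single fragment pair can show. In counts simulated with the estimated spread, edgeR recovered 0% of true log2 changes of 2 and 0% of those of 3. The lack of calls therefore cannot show that the limb bud parts are alike. Posterior replicate 2 had the most counts but the fewest pairs above 0 (16695, against 19979 in posterior replicate 1, 22937 and 23946 in the anterior libraries).

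Summed over partners beyond 100 kb, the 6 fragments together placed 22.1 ± 1.501% of their counts in the left, 57.1 ± 3.88% in the central and 17.6 ± 2.94% in the right zone in posterior limb bud. In anterior limb bud the shares were 23.1 ± 0.92%, 56.2 ± 1.44% and 17.0 ± 0.22% (SD, n = 2 each). Every difference was smaller than the spread between the posterior libraries. Single fragments scattered more, with Shh_437 at 19.04 ± 1.36% left in posterior and 24.0 ± 1.81% in anterior, and Shh_438 at 26.2 ± 3.53% in posterior and 22.6 ± 1.57% in anterior, in the opposite direction.

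**Figure D4:**
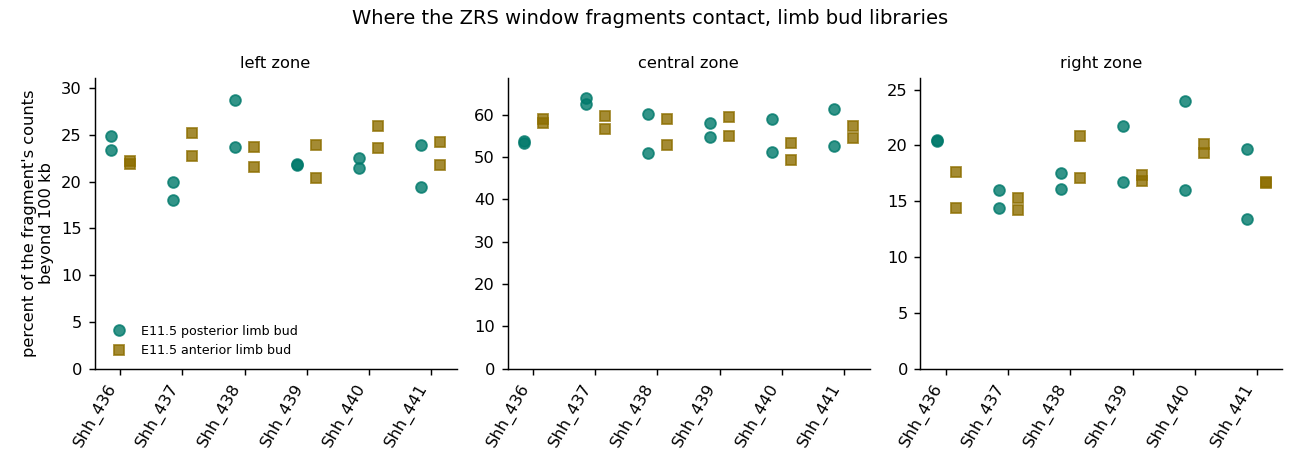
Percent of the counts beyond 100 kb of each of the 6 fragments over the enhancer window that lie in the left, central and right zones; points are libraries, posterior before anterior limb bud. Central shares lie above 49% and outer shares below 29% for every fragment and library.

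Wild type ESC had less contact between the enhancer and the left zone than limb buds had. limma called 2 of the 6 zone means of bins 62 and 63, both lower in ESC, beside 31 of 231 in the map (13.4%), with 9.09% called lower. Bin 62 with the left zone was 20.8 and 20.4 in wild type ESC, against 28.9 and 29.5 in posterior and 27.6 and 26.7 in anterior limb bud, and fell by 0.45 (SE 0.11, adjusted p = 0.015). Bin 63 with the left zone averaged 20.8 ± 0.45 in wild type ESC (n = 2) and 28.7 ± 1.502 in limb bud (SD, n = 4), and fell by 0.46 (SE 0.11, limma adjusted p = 0.014). The ESC libraries lay below every limb bud library in both bins, and 20 of the 21 partner values behind these 2 means are shared. In the body library both means were higher again, at 32.2 and 32.1.

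The other zones gave no call between ESC and limb bud. With the central zone bin 62 averaged 38.6 ± 4.35 in wild type ESC and 38.4 in limb bud, and with the right zone 28.97 ± 1.94 in wild type ESC and 31.5 in limb bud (-0.12). As observed over expected the right zone was called lower in ESC as well, at -0.33 for bin 62 (limma adjusted p = 0.014) and -0.37 for bin 63 (0.0061). Among the 40 bins from 22 to 63 with a value, bins 62 and 63 were the 2 called lower with the left zone, and bin 22 was the 1 called higher (0.80). In the right zone, bins 72, 73, 76, 77, 78 and 79 were called lower with the left zone as well. Their changes were -0.41 in bins 72, 73, 76 and 77 and -0.53 in bins 78 and 79. Bin 70 was called higher (0.47). The lower contact with the left zone was thus not particular to the enhancer. Within run year 2015, with 1 ESC and 4 limb bud libraries, the changes of bins 62 and 63 with the left zone were both -0.44. The calls were lost without wild type replicate 1 (adjusted p = 0.10), without wild type replicate 2 (0.17 and 0.16) and without anterior replicate 1 (0.10).

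Of single pairs limma called 0 of 147, beside 2 of 2853 in the map (0.0701%). The unadjusted p was under 0.05 in 31 of the 147 and in 404 of the 2853. The median change was -0.12 over the enhancer pairs and -0.05 over all pairs. Bin 63 with bin 21 was 41.96 and 63.1 in wild type ESC, against 80.4 and 99.2 in posterior and 110 and 112 in anterior limb bud (-0.82, SE 0.18, adjusted p = 0.20). With bin 20, bin 63 was at 34.8 and 42.2 in wild type ESC and between 55.1 and 74.6 in the 4 limb bud libraries (-0.67, limma adjusted p = 0.21). A desert partner had the opposite sign: bin 62 with bin 46 was 63.7 and 78.7 in wild type ESC and between 32.1 and 58.5 in limb bud (0.68, limma adjusted p = 0.21). The groups did not overlap in any of these 3 pairs. Over all, ESC lay below limb bud without overlap in 35 of 147 pairs, where 13.5% of the map did, and above it in 5 of 147, where 8.59% did.

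In D700 embryos the map lacked bins 27 to 58, most of the desert between Shh and the enhancer, and the direction of the enhancer's change depended on the scale. As deposited, bin 62 with the left zone averaged 27.7 and 29.9 in D700 libraries, against 15.6 in the body library. The deposited totals over the bins kept were 45913.4 and 45908.1 in D700 but 21401.7 in the body, so the D700 files carry near the full total on fewer pairs. Scaled to the same total over those bins, the left zone of bin 62 was 60.4 and 65.1 in D700 and 73.1 in the body, the opposite order.

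With that scaling the enhancer's contacts gave no call. limma called 0 of 85 pairs, beside 1 of 993 in the map (0.101%), and 0 of 6 zone means, beside 5 of 138 (3.62%). The unadjusted p was under 0.05 in 5 of the 85 pairs and 81 of the 993. Among zone means it was so in 0 of the 6 and 18 of the 138. The value with bin 24, across the missing stretch, was 152 and 163 in D700 and 99.6 in the body (0.53, limma adjusted p = 0.43). When each value was divided by its distance mean, the change for bin 62 was -0.51. For pairs across the missing stretch, D700 distances were counted without the missing bins. The divisors in D700 and the body thus belong to unlike distances, and the 2 signs cannot be compared. Across bin 65, bin 63 with bin 66 was 173 and 184 in D700 and 274 in the body (-0.54, limma adjusted p = 0.44), and turned to 0.44 without scaling. The 4 zone means with the left and right zones were lower by 0.22 to 0.30 and the 2 with the central zone higher by 0.17 and 0.18; without scaling the left and right ones were higher in D700, and as observed over expected the central ones were lower. With 1 body library, that library is assumed to vary like the D700 and limb bud groups. The body library was run in 2014 and both D700 libraries in 2015. The deletion, the tissue and the run year thus cannot be told apart in this comparison.

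**Figure D5:**
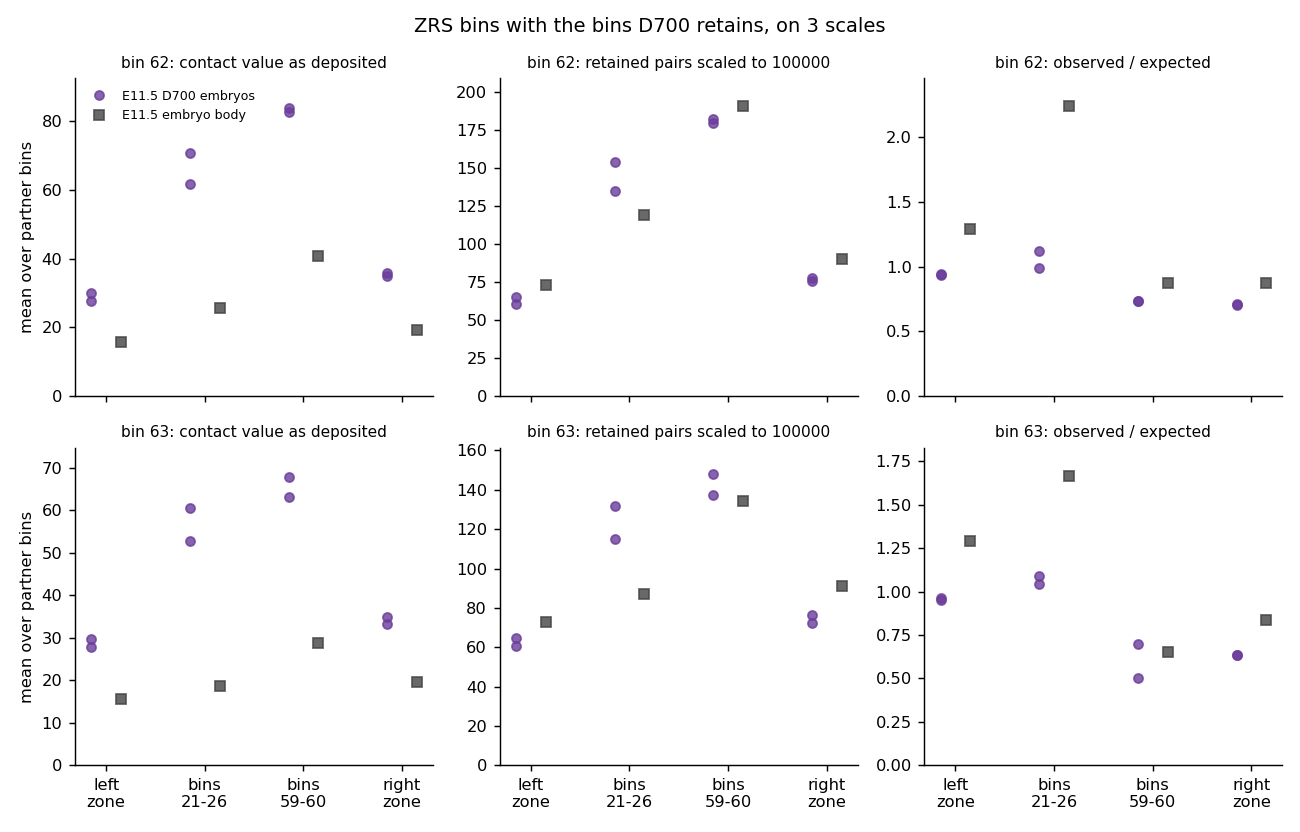
Mean contact of bins 62 and 63 with 4 sets of partners (left zone, bins 21 to 26 without 22, bins 59 and 60, right zone) in the 2 D700 libraries and the body library, as deposited, scaled to 1 total, and as observed over expected. D700 lies above the body for bin 62 with bins 21 to 26 as deposited (61.8 and 70.7 against 25.6). It lies below the body as observed over expected (0.99 and 1.12 against 2.24). For that ratio the D700 distances across the missing bins were counted without them, so the divisors belong to unlike distances.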

How the data were processed

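The 23 samples gave 21 5C libraries of mouse chromosome 5, mm9 per the submitters' processing notes; software for alignment and binning: not given in the sources used here. Deposited binned matrices hold a contact signal per pair of bins, whose normalization the labels do not state. For the 14 ESC libraries the authors also deposited a ratio, observed over expected, used as an alternative. For the 4 limb bud libraries, counts per fragment pair were deposited. The 19 matrices that add replicates were not used here.

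Pairs at least 2 bins apart were scaled to 100000 per library, and pairs above 0 in at least 50% of libraries were fitted with limma (version 3.58.1, R 4.3.3) after adding a pseudocount and taking log2. This pseudocount, the 5th percentile of values, was 9.36 in the ESC fit, 11.0 in the limb bud fit, 30.2 in the D700 fit and 10.7 between ESC and limb bud. One fit of 14 libraries gave all ESC comparisons, limb bud libraries added to the spread of the D700 fit, and the D35 fit had no pairs of bin 65. Zone means were fitted as log2 values. Fragment counts were fitted with edgeR 4.0.16 (quasi-likelihood, TMM) and, as an alternative, DESeq2 1.42.0. The scripts were tested on simulated data. Observed over expected values elsewhere are contact over the library's mean at that distance.

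The pairs named are, per group, the 5 partners at least 3 bins away with the highest observed over expected value and, per comparison, the called pairs or else the 3 of smallest p. Other pairs with bins 20, 21, 22 and 24 were added after their values were seen. Bin 22 was left out of the rankings and of the counts of enhancer pairs tested, also for fragments. Per fragment, the 3 partners beyond 100 kb with the highest summed count were ranked. Viewpoint, zones, rule and lists were chosen with earlier results of these data known.

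In the labels, same-numbered anterior and posterior libraries share a run day. Their deviations from the group means were correlated at -0.03 over 2853 pairs. Alternatives were other scalings, pseudocounts, filters, zones, run year, the replicate block and each library left out.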

Additional observations from a re-analysis of the deposited data

How the results depend on the processing

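Of 224 counts of calls recomputed under alternatives, 195 stayed within 1.5 times the reported count. For DCTCF4 (2 pairs) the count was 1 with observed over expected values and 0 with the deposited observed over expected values, with a pseudocount of 1 and with run year as a covariate, and ran from 0 to 4 with a library left out. For D35 the 3 pairs became 1 with a pseudocount of 1 and 0 with run year, and 0 to 1 with a library left out; the 3 zone means became 0 with zones cut by 2 bins, with run year, with scaling without bin 65, and with any library left out (0 to 0). For ESC against limb bud the 2 zone means became 4 with observed over expected values, 0 to 2 with a library left out, and 0 with the replicate block (adjusted p = 0.057 for both); these groups share only replicate numbers. The replicate block changed no other count by over 1.5 times. For D700, unscaled values gave 79 of 85 pairs and 6 zone means, and observed over expected values 4 zone means. Unscaled, the totals over the bins kept were 45913.4 and 45908.1 in D700 and 21401.7 in the body. The shares of the whole map called under these settings are not given here, so these counts are no result about the enhancer. DESeq2 called 7 fragment pairs where edgeR called 0. The causes were not tested. Alternatives chosen after seeing the data were scaling without bin 65, scaling on pairs outside the D700 deletion and testing each shared value once.

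Of 914 recomputed log2 changes 44 reversed, none of them a reported call. In 59 others a reported call was lost with the sign kept, and in 8 a change not reported as called was called. D700 without scaling gave 0.88 (left, both bins), 0.87 and 0.81 (right, bins 62 and 63) and 0.44 (63 with 66); as observed over expected, -0.83 and -0.63 (central) and -0.51 and -0.40 (bin 24). Zone means by observed over expected, own then deposited, were -0.0069 and -0.0064 (DCTCF1, 62 central), 0.064 and 0.066 (DCTCF2, 62 left), 0.083 and 0.088 (DCTCF2, 63 left), 0.077 and 0.060 (DCTCF4, 63 right) and -0.022 and -0.020 (DCTCF5, 63 left), and by the own values -0.069 and -0.027 (posterior, left) and 0.017 (ESC against limb bud, 63 central). With run year they were 0.017, 0.031 and -0.0041 (62 central in DCTCF2, DCTCF3 and DCTCF5). DCTCF4, 63 right, was 0.022 at 5 bins apart and 0.022 with cut zones. With a library left out, the reversing ranges were -0.049 to 0.18 (DCTCF1, 62 central), -0.021 to 0.12 and -0.0097 to 0.11 (DCTCF1, right), -0.16 to 0.073 (DCTCF2, 62 central), -0.15 to 0.0071 (DCTCF2, 63 left), -0.011 to 0.16 (DCTCF2, 63 central), -0.14 to 0.088 (DCTCF3, 62 central), -0.081 to 0.28 and -0.0071 to 0.29 (DCTCF4, left), -0.026 to 0.20 (DCTCF4, 62 central), -0.081 to 0.039 (DCTCF4, 63 right), -0.061 to 0.17 (DCTCF5, 62 central), and -0.11 to 0.12 and -0.11 to 0.059 (ESC against limb bud, central). Contact depth is unknown, which limits the precision of single pairs.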

Other observations

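Bins 4 and 5 in the left zone stood above their distance mean in every library without ranking among the first 5 in wild type ESC, limb bud or body. Bin 4 had observed over expected values of 1.11 to 1.74 with bin 62 (median 1.42) and of 1.04 to 1.75 with bin 63 (median 1.41) over 21 libraries. Bin 5 had values of 1.08 to 1.72 with bin 62 (median 1.42) and of 1.11 to 1.74 with bin 63 (median 1.42). In D700 embryos bin 4 was the third partner of both viewpoint bins, with 1.43 for bin 62 and 1.41 for bin 63, and bin 5 was the fifth partner of bin 62 (1.28) and the second of bin 63 (1.43). All 4 of these pairs had the same mean contact of 73.6 in D700, so they are not independent values. The bins were named for their D700 ranks, and no comparison was made of them.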
